A study of Mus musculus with 4 samples.

Results

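The 8 genes Igf1, Spp1, Dkk2, Mamdc2, Serpine2, Lgals3, Timp2 and Il4i1 encode proteins that MGnD microglia, the neurodegenerative or disease-associated state, release or place outside the cell. They were chosen by symbol, and all 8 were found among the 32372 gene features measured. RNA of single CD11b+/CD45+ myeloid cells, taken from the left hemisphere with a Percoll gradient and a flow cytometry sort, was counted in 4 libraries (10x Genomics 3′ v3.1). Every library was labelled as female, 4 months old and APP/PS1. Both groups thus carry these transgenes, which make amyloid plaques. The Control group was APP/PS1 and the cKO group was APP/PS1:miR-155 cKO, in which the microRNA miR-155 was deleted in microglia, with 2 biological replicates each. The labels name neither the Cre driver nor the deleted part of the locus, and do not say how many mice a library holds. They call the libraries biological replicates, and the p-values measure the spread between these libraries.

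Control replicate 1 goes against its label: it held 27 UMIs of Xist, the RNA that coats the inactive X chromosome of female cells, or 0.704 CPM (counts scaled by the total UMIs of the kept cells), against 1756 to 1894 CPM in the other 3 libraries. For the factors, each genotype value below is therefore also given without it where it changes a call or a direction. For single genes other than the factors, and for the gene lists, values without it are not given. The run code in the deposited names is shared by 3 libraries and differs for cKO replicate 2. What the code stands for is not given. A difference within the shared run code sets cKO replicate 1 alone against both Control libraries. A difference without cKO replicate 1 sets cKO replicate 2 alone against them, where genotype and run code cannot be told apart. The host transcript of the microRNA, Mir155hg, had 7 and 11 UMIs in Control and 1 and 1 in cKO, replicates 1 and 2 in that order. Whether the counted 3′ end lies inside the deleted part is not stated, so those UMIs do not check the deletion, and the mature microRNA was not measured.

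Microglia that meet amyloid plaques lose homeostatic genes such as P2ry12 and Tmem119 and gain Clec7a, a pattern receptor, Cst7, a cysteine protease inhibitor, Apoe and others, a course that depends on the receptor TREM2. The 8 factors act outside the cell in different ways. Igf1 is a growth factor that acts on neurons and oligodendrocytes. Spp1 (osteopontin) is a matrix glycoprotein that binds integrins and CD44. Dkk2 binds the Wnt co-receptors LRP5 and LRP6. Mamdc2 is a secreted proteoglycan with MAM domains. Serpine2 (protease nexin-1) inhibits thrombin and plasminogen activators, and Timp2 inhibits matrix metalloproteinases. Lgals3 (galectin-3) binds galactosides on glycoproteins and has been described as a ligand of TREM2. Il4i1 is a secreted oxidase of aromatic amino acids, first known as an interleukin-4 induced gene. miR-155 is an inflammatory microRNA of macrophages and microglia that represses transcripts carrying a match to its seed.

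The mature microRNA deleted in the cKO mice is shown first, with its seed (bases 2 to 8) in capitals, since the members can be read against it. It lies on chr16:84714143-84714165 (plus strand, RefSeq, GRCm38.p6).
mmu-miR-155-5p: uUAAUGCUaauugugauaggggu
A transcript matches the seed where it carries AGCATTA. All 8 members had an annotated 3′ UTR in GENCODE M21 (GRCm38), and 2 of them, Igf1 and Timp2, carried matches, 2 each. Among 20892 genes with a 3′ UTR, 1740 (8.33%) carried a match in the longest annotated one. The 4 windows follow, 5′ to 3′ on the transcript strand, with the match in capitals.
Igf1, chr10:87934447-87934475, plus strand: cttactgagatAGCATTAgatctagccac
Igf1, chr10:87936318-87936346, plus strand: gcctaaaagcaAGCATTAttcattttctc
Timp2, chr11:118303356-118303384, minus strand: agcagacaggcAGCATTAagggtacccta
Timp2, chr11:118301838-118301866, minus strand: atgcctttcgtAGCATTAgactttgcact
Only the first Timp2 window has an A after the match, the longer form of a seed site. A match is a description of letters, and no binding was measured. The 3′ UTRs of the other 6 members run from 304 bases in Il4i1 to 2184 in Dkk2, against 6308 in Igf1 and 2630 in Timp2.

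Promoters are shown for Igf1 and Spp1, the pair of sparse factors found together in the same cells below, and for Il4i1, which shares a motif with Spp1. Each holds 250 bases before and 50 after the start site (RefSeq, GRCm38.p6), with found motifs in capitals.
Igf1, chr10:87860861-87861160, plus strand: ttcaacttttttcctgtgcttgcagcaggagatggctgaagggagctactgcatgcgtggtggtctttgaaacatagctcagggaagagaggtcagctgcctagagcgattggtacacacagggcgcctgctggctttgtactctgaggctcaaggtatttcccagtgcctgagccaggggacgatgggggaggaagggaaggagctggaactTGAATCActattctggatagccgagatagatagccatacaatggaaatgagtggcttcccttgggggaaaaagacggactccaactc
Spp1, chr5:104434861-104435160, plus strand: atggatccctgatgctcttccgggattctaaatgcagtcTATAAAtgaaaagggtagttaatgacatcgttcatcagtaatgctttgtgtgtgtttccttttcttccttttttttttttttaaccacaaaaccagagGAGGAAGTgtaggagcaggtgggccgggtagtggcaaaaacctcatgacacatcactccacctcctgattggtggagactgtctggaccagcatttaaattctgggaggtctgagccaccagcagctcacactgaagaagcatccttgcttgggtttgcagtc
Il4i1, chr7:44836038-44836337, plus strand: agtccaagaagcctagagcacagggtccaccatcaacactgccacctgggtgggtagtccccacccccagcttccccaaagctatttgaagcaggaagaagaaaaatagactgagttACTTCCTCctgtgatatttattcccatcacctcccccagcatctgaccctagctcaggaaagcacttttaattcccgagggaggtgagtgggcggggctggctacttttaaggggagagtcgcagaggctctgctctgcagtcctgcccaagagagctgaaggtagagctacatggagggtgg
The motif of PU.1, the factor that sets myeloid identity, was searched as GAGGAAGT on both strands. It occurred at 113 bases before the Spp1 start and, on the other strand, at 133 bases before that of Il4i1, and 3.20% of 32851 promoters of this length hold it. The AP-1 motif TGANTCA, on both strands, was found in Igf1 as TGAATCA at 37 bases before the start and is held by 7.81% of promoters. TATAAA on the gene strand stood at 211 bases before the start in Spp1 and at 32 in Dkk2, with 8.32% of promoters holding it. CACGTG, the E-box of TFEB and TFE3, is held by 7.15% and was in none of the members' windows. Promoter entries matched 7 of the 8 members, with a second entry for Spp1 that held none of these motifs. No binding or accessibility was measured at any of them.

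The libraries held 33130800 to 47574406 UMIs in all. Barcodes were kept with 1000 or more UMIs, 500 or more genes and no more than 10% of UMIs from mitochondrial genes, which left 13940, 2852 to 4351 per library, with median depths of 6158 to 7236 UMIs. All 10 microglia markers were detected in every library. Summed markers of other cells were low against the microglia sum of 21243 to 24459 CPM: monocyte markers took 10.2 to 38.4 and border-associated macrophage markers 6.66 to 11.3. Oligodendrocyte markers took 49.2 to 57.7. Choroid plexus markers took 372 and 174 in Control replicates 1 and 2 and 65.9 and 246 in cKO replicates 1 and 2. Neutrophil markers took 244, 0.0394, 266 and 47.8 CPM in Control replicates 1 and 2 and cKO replicates 1 and 2. A heat-shock sum (Hspa1a, Hspa1b and Dnajb1), a sign of handling stress, was 328, 241, 496 and 905 in that order and thus higher in both cKO libraries. Any 2 libraries shared 1 to 4 barcodes of cells.

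To compare cells at equal depth, each was thinned to 2000 UMIs, which left 12883 cells and dropped 1057. A cell was called positive for the state with at least 1 UMI of Clec7a or Cst7. Positive cells made up 36.9% and 36.0% of cells in Control and 31.7% and 19.7% in cKO. The groups did not overlap, with a difference of -10.8 percentage points between means of 36.5% ± 0.631 and 25.7% ± 8.50 (SD, n = 2 each). The exact two-sided permutation test gave p = 0.333, the smallest that 2 libraries against 2 can give. It was -4.77 points within the shared run code. Free RNA, taken at its share of a library's UMIs, would by itself give Cst7 in 12.5%, 16.7%, 10.3% and 5.10% of cells and Clec7a in 3.68%, 6.39%, 3.87% and 2.63%, in Control replicates 1 and 2 and cKO replicates 1 and 2. For Cst7 these values were lower in both cKO libraries, as the positive share was, and their part in that difference was not tested. Cells with both genes made up 680 of 1477, 418 of 949, 480 of 1137 and 200 of 525 positive cells in the same order, so the make-up of the positive set differed as well. Before thinning, positive cells held more RNA, with median depths of 9689 to 11319 UMIs against 5708 to 7133 in cells with neither gene.

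All 8 factors were found in a larger share of positive cells than of cells with neither gene in each of the 4 libraries. The factors are named for this state, so these shares are a description without a test. They fall into 2 kinds. Igf1, Spp1, Dkk2 and Mamdc2 were nearly restricted to positive cells, with 574 of 611, 263 of 287, 21 of 22 and 37 of 40 of their cells there. Serpine2 and Timp2 were found in most cells of either kind, while Il4i1 (515 of 727) and Lgals3 (130 of 175) lay between.

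Igf1 (chr10:87858265-87937042, plus strand) was detected in 15.5%, 15.2%, 14.2% and 7.62% of positive cells in Control replicates 1 and 2 and cKO replicates 1 and 2. Among cells with neither gene its shares were 0.397%, 0.653%, 0.409% and 0.280% in the same order. The ratio of the shares was 23.2 to 39.1. The positive share of cKO replicate 2 was the lowest, and its exact 95% binomial interval of 5.50% to 10.2% did not reach those of the other 3 libraries, the lowest of which began at 12.2%. Such intervals cover counting error only. Igf1 was further graded by which state gene a cell held: 4.04% to 5.67% of cells with Clec7a alone, 3.80% to 12.6% with Cst7 alone and 12.5% to 22.7% with both.

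Spp1 (chr5:104435118-104441050, plus strand) was detected in 6.16%, 7.06%, 6.68% and 5.52% of positive cells, and in 0.198%, 0.534%, 0.0817% and 0.374% of cells with neither gene. The 4 positive shares lay within each other's intervals (3.73% to 7.84% in cKO replicate 2). The cells that held it differed more in amount: at 2000 UMIs a positive cell with Spp1 held 1.40 to 2.63 UMIs of it on average, against 1.35 to 1.47 for Igf1. Spp1 was graded in the same order of cells as Igf1, from 2.13% to 3.79% with Clec7a alone through 4.69% to 5.73% with Cst7 alone to 8.50% to 10.5% with both.

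Dkk2 (chr3:132085292-132180304, plus strand) and Mamdc2 (chr19:23302609-23448442, minus strand) were the rarest. Dkk2 was found in 8, 6, 5 and 2 positive cells, or 0.542%, 0.632%, 0.440% and 0.381%. Mamdc2 was found in 12, 17, 5 and 3 positive cells, or 0.812%, 1.79%, 0.440% and 0.571%. In cells with neither gene, Dkk2 had 1 cell in all, in Control replicate 2, and Mamdc2 had 3, in Control replicate 1. The libraries without such a cell allow shares of cells with a UMI at this depth of up to 0.119% to 0.178%, which does not bound the share of cells that express either gene. At full depth Dkk2 gave 16 to 57 UMIs per library and Mamdc2 32 to 135, nearly all of them in positive cells.

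The protease inhibitors were broad. Serpine2 (chr1:79794197-79861180, minus strand) was detected in 75.8%, 74.8%, 74.1% and 70.7% of positive cells and in 53.6%, 54.2%, 50% and 51.7% of cells with neither gene. Timp2 (chr11:118301069-118355740, minus strand) was detected in 83.5%, 80.6%, 80.7% and 81.3% of positive cells and in 65.3%, 67.5%, 62.7% and 62.3% of the others. For both genes the shares of the 2 kinds of cells did not overlap over libraries, with gaps of 19.0 to 24.1 points for Serpine2 and 13.1 to 19.1 points for Timp2. Both were also more abundant where detected: 2.23 to 2.26 UMIs of Serpine2 per cell with it in positive cells against 1.46 to 1.51, and 2.26 to 2.68 of Timp2 against 1.65 to 1.81.

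Il4i1 (chr7:44816387-44840809, plus strand) was detected in 14.4%, 11.7%, 10.99% and 12.8% of positive cells and in 2.89%, 3.03%, 1.92% and 1.92% of cells with neither gene. Its share went from 6.16% to 9.22% of cells with Clec7a alone to 13.8% to 19.3% of cells with both. Lgals3 (chr14:47367751-47386160, plus strand) was detected in 2.78%, 3.06%, 4.31% and 2.10% of positive cells and in 0.714%, 0.416%, 0.572% and 0.280% of the others. It did not follow the order of the other factors: its share was 4.27% to 6.96% of cells with Clec7a alone, 0% to 2.48% with Cst7 alone and 2.00% to 4.79% with both. In each library, Lgals3 was more frequent in cells with Clec7a alone than in cells with Cst7 alone, whereas Igf1 had that order only in cKO replicate 2. The Lgals3 order rests on 49 cells with Clec7a alone and 26 with Cst7 alone over all libraries. Of 38 thinned cells with at least 2 monocyte markers, 65.8% held Lgals3, 44.7% Clec7a and 15.8% Cst7. They were not left out here, and their part in the order was not tested.

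**Figure D1:**
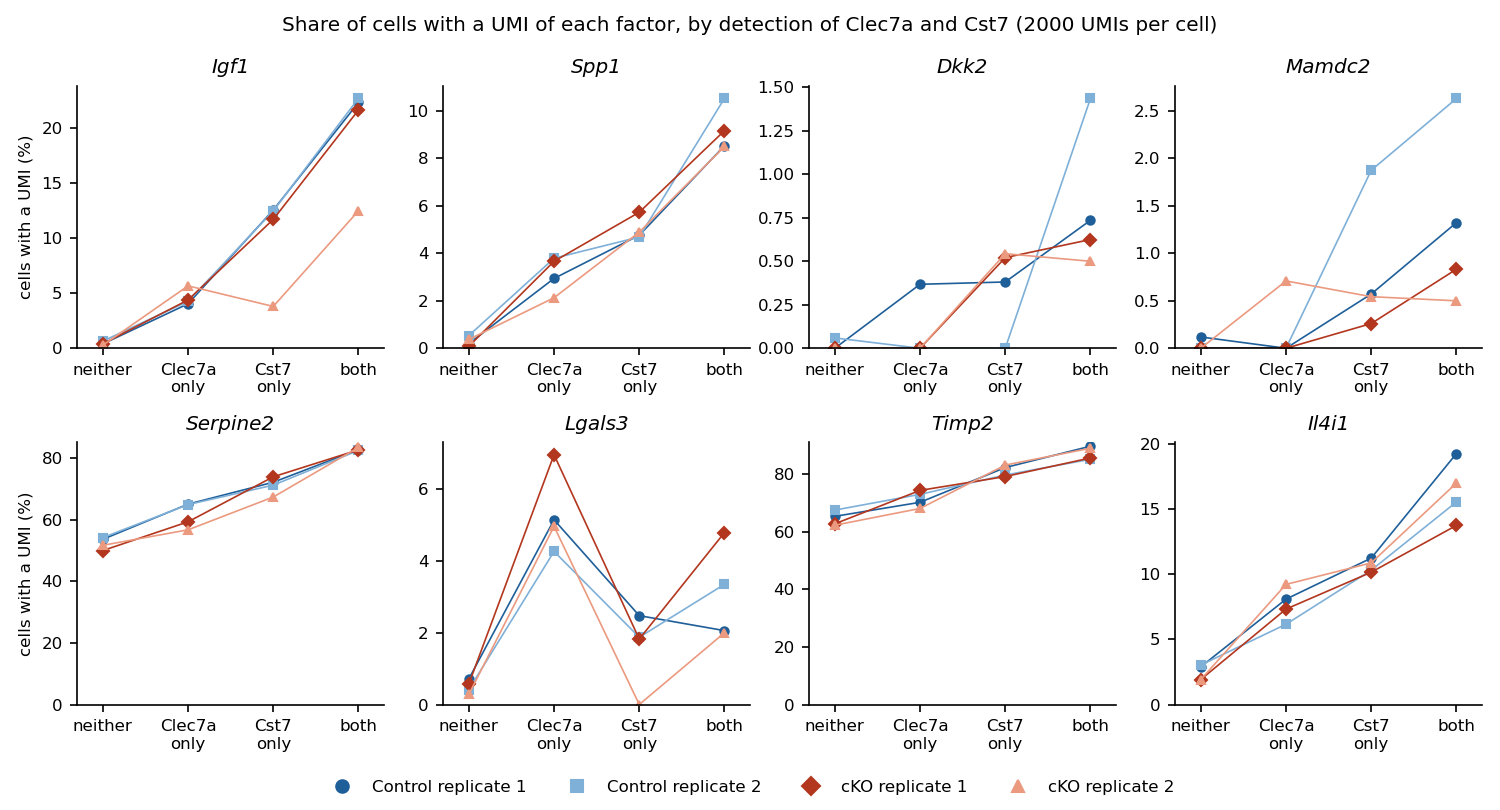
Share of cells with at least 1 UMI of each factor (y axis, percent, from 0) by whether Clec7a and Cst7 were detected (x axis), after thinning to 2000 UMIs. Each line is 1 library. Igf1 reaches 12.5% to 22.7% and Spp1 8.50% to 10.5% in cells with both genes, while Lgals3 is highest in cells with Clec7a alone, at 4.27% to 6.96%. Cells with markers of other cell types, such as monocytes, are included.

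The same order was seen when cells were ranked by genes that did not call the state. Of 10 other MGnD genes (Itgax, Lpl, Axl, Csf1, Gpnmb, Fabp5, Ank, Cd63, Cadm1 and Hif1a), 2383 thinned cells held none and 983 held 5 or more. Igf1 was found in 0.455% to 0.750% of cells with none, 0.501% to 3.28% with 2, 11.2% to 18.6% with 4 and 23.5% to 30.4% with 5 or more. Spp1 went from at most 0.294% with none to 10.5% to 13.3% with 5 or more, and Il4i1 from 1.5% to 3.38% to 15.6% to 25.5%. Dkk2 was at 0 in all 2383 cells with none and reached 0.760% to 2.04% with 5 or more, where Mamdc2 reached 0.760% to 3.099%. Serpine2 and Timp2 stayed near their base up to 2 genes (51.9% to 58.9% and 65.4% to 71.7%) and reached 80.6% to 88.2% and 85.2% to 90.3%. Lgals3 ended at 3.38% to 5.99%, its highest step in 3 of 4 libraries. In Control replicate 1 its highest was 4.14%, with 4 genes.

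**Figure D2:**
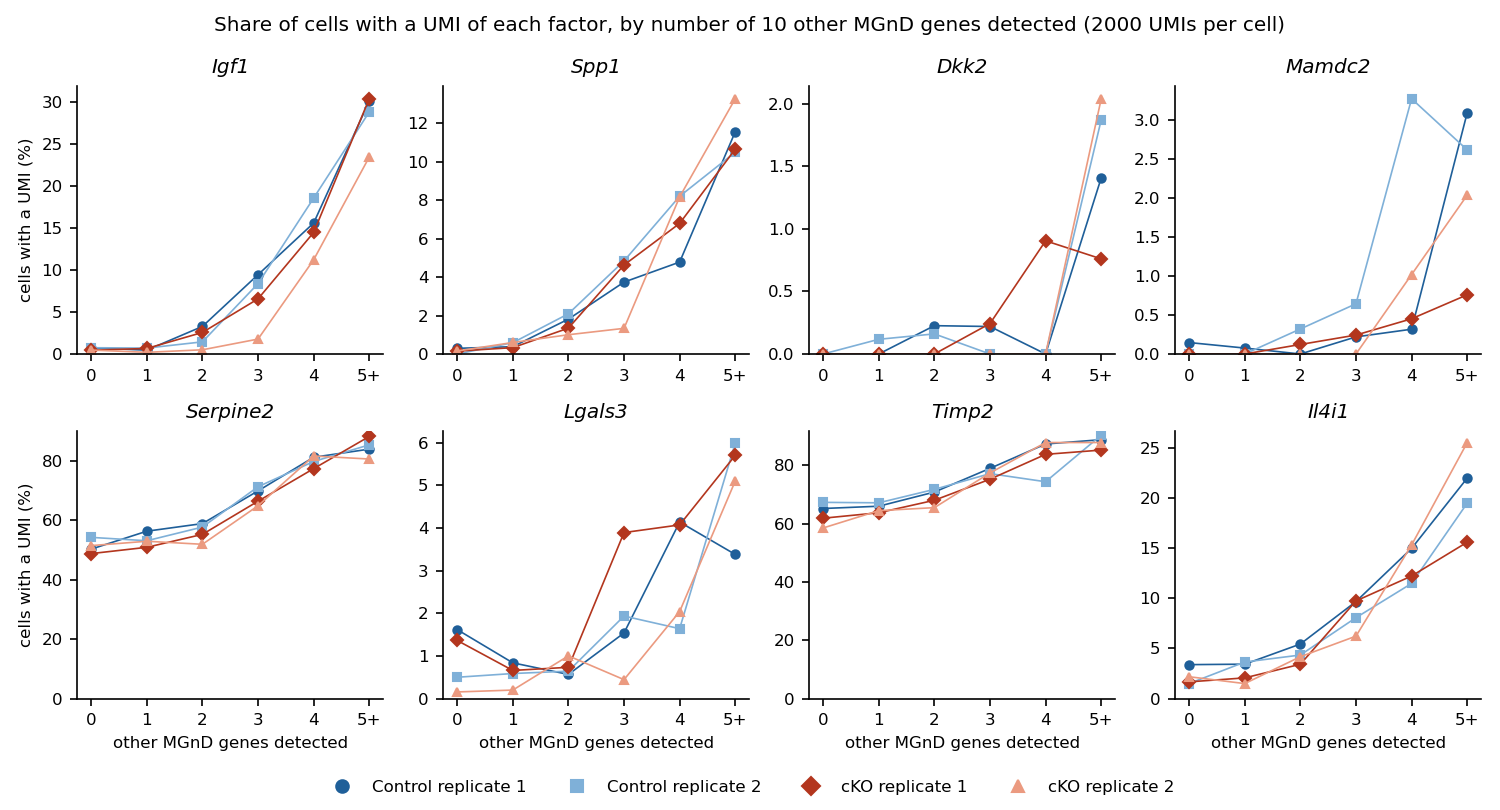
Share of cells with at least 1 UMI of each factor (y axis, percent, from 0) by the number of 10 other MGnD genes detected in the cell (x axis), at 2000 UMIs. Each line is 1 library. Igf1 stays at or under 0.750% in cells with no other MGnD gene and reaches 23.5% to 30.4% with 5 or more.

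Free RNA and other cells can add to these shares. If droplets held only the RNA of barcodes with at most 100 UMIs, 2000 UMIs would give an Igf1 share of 2.28% to 7.77%, and at the share that free RNA takes of a library's UMIs, 0.424% to 1.43%. In each library the latter was above the Igf1 share of cells with neither gene, so that share cannot be told apart from background. For Spp1, with 0.268% to 0.864% expected, the same held in 3 of 4 libraries. In cKO replicate 2 the share of 0.374% was above the 0.268% expected. Such expected values can be too high. In cells with none of the 10 other MGnD genes, Cst7 was found in 4.85%, 5.25%, 4.70% and 2.64%, Control then cKO. Free RNA at its share would give 12.5%, 16.7%, 10.3% and 5.10%. For Serpine2 and Timp2 free RNA at its share would give 10.5% to 15.4% and 14.1% to 18.8%, under their shares in cells with neither gene. Droplets of free RNA alone would give 49.1% to 60.8% and 56.1% to 73.1%, which were above those shares in 3 of 4 libraries for each gene. For Il4i1, free RNA at its share would give 0.586% to 1.07%, under its share in cells with neither gene. Barcodes with at most 3 of the 10 microglia markers were few (31, 11, 31 and 8), and Serpine2 was found in 6.45% to 25.0% of them. Lymphocyte or neutrophil barcodes were too few to serve as a background.

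Barcodes marked as other myeloid cells held the factors in another mix. Among 38 thinned cells with at least 2 monocyte markers, 65.8% held Lgals3, 23.7% Timp2, 7.89% Serpine2, 5.26% Igf1 and none Spp1. Among 39 with at least 2 markers of border-associated macrophages, 51.3% held Timp2, 35.9% Serpine2, 15.4% Lgals3, 5.13% Spp1 and none Igf1. Lgals3 was also found in 25.0% to 54.8% of barcodes with at most 3 microglia markers. Igf1, Spp1, Dkk2 and Mamdc2 had 0 to 2 cells in either set of marked barcodes.

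Most positive cells showed none or 1 of the 6 sparse factors (all but Serpine2 and Timp2) at this depth. The share with none was 66.8%, 68.5%, 70.4% and 76.0%, the share with 2 was 4.47%, 5.90%, 6.24% and 4.57%, and the share with 3 or more was at most 1.15%. Of cells with neither state gene at least 95.5% showed none. Which factors were found together was described by the odds ratio of detection in the same positive cell, over the 4 libraries. Of 15 pairs without Dkk2 and Mamdc2, 9 had an odds ratio above 1 in all 4 libraries and 1 had one below 1 in all 4. The cells of a library share its source, so no p is given.

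Igf1 and Spp1, the growth factor and the matrix protein, were often found together. They were found together in 76 cells where 37.2 would be expected if they were independent, with an odds ratio of 2.70 (2.43 to 3.71 over libraries). In Control replicate 1, for instance, Spp1 was in 13.1% of positive cells with Igf1 and in 4.89% of those without. When cells were compared only with cells holding a like number of the 10 other MGnD genes, the odds ratio was 1.90 (1.71 to 2.16) and above 1 in 4 of 4 libraries. Lgals3 joined both: its odds ratio was 2.20 with Igf1 (34 cells against 18.5 expected) and 2.24 with Spp1 (17 against 8.46), and within strata 1.87 and 1.98, again above 1 in all 4 libraries. The order of Igf1 with Spp1 and Spp1 with Lgals3 changed with the depth: at 1000 UMIs Igf1 with Spp1 gave 2.02 and Spp1 with Lgals3 3.44, and at 4000 UMIs 2.64 and 1.74.

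Il4i1 and Igf1 were closer to independence than Igf1 and Spp1. The odds ratio of Il4i1 with Igf1 was 1.29 (1.24 to 1.38 over libraries, 87 cells against 72.5). Within strata it became 0.918, with 1 of 4 libraries above 1. With Spp1 it was 1.90, and 1.48 within strata. The protease inhibitors were found together, Serpine2 and Timp2 with an odds ratio of 1.73 (1.38 to 2.35), and 1.45 within strata. Serpine2 and Il4i1 gave 1.55, and 1.23 within strata, above 1 in 4 of 4 libraries.

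Serpine2 and Lgals3 were found together less often than independence would give, in 77 cells against 96.9, with an odds ratio of 0.483 (0.343 to 0.720) that was 0.389 within strata. In Control replicate 1, 56.1% of positive cells with Lgals3 held Serpine2, against 76.3% of those without. The monocyte-marked barcodes above have this mix of high Lgals3 and low Serpine2. With all barcodes holding 2 markers of another cell type left out (5.67% to 7.01% per library), the odds ratio was 0.652, below 1 in 4 of 4 libraries, the highest at 0.951. Lgals3 and Timp2 gave 0.651, with 1 library above 1, and 0.891 without those barcodes.

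**Figure D3:**
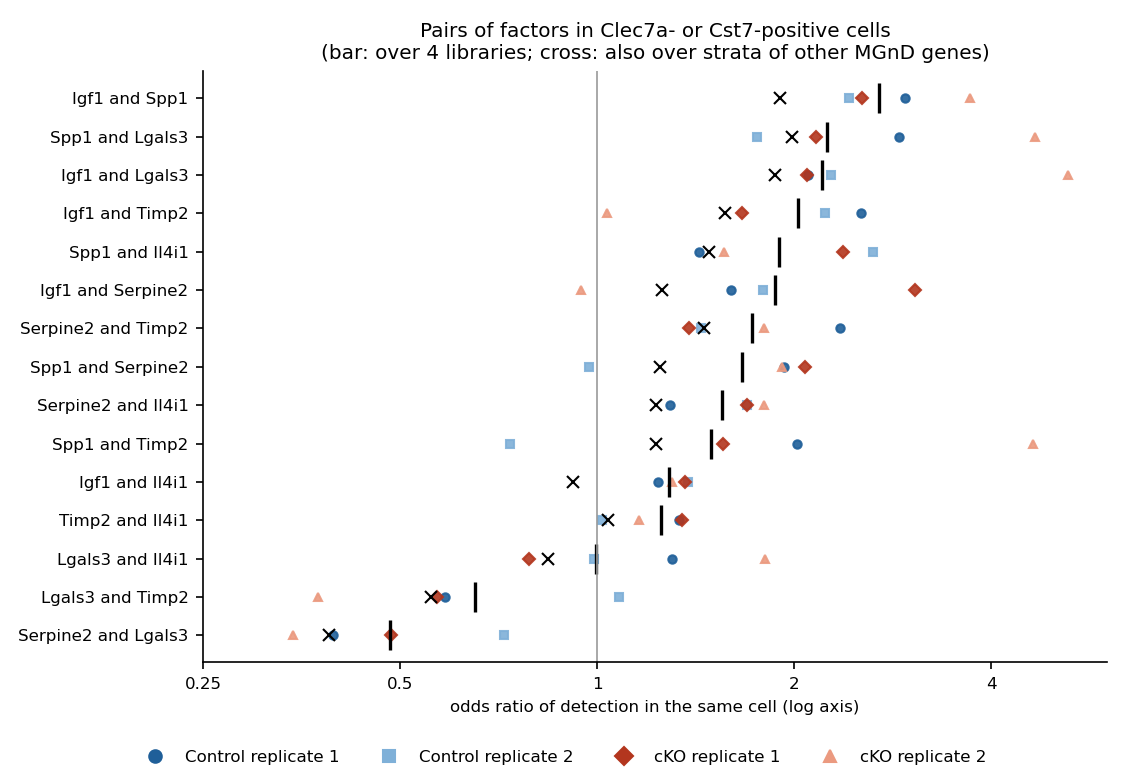
Odds ratio of detection in the same Clec7a- or Cst7-positive cell at 2000 UMIs (x axis, log scale) for the 15 pairs of 6 factors (y axis). Points are libraries, the bar is the ratio over 4 libraries, and the cross also holds the number of other MGnD genes fixed. Igf1 with Spp1 lies between 2.43 and 3.71, and Serpine2 with Lgals3 between 0.343 and 0.720.

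Pairs with Dkk2 or Mamdc2 rest on few cells. Mamdc2 was found with Igf1 in 13 cells (5.38 expected) and with Spp1 in 8 (2.44 expected), Dkk2 with Mamdc2 in 2 (0.206 expected) and Dkk2 with Lgals3 in 4 (0.663 expected). Several libraries had no cell with both genes of such a pair, where the 0.5 added to each cell of the table can by itself put the ratio above 1. Within strata, libraries without a cell holding both genes gave no ratio and were left out. Spp1 with Mamdc2 had a ratio in 3 libraries, Dkk2 with Mamdc2 in 2 and Dkk2 with Lgals3 in 2. Each of those ratios was above 1, but only libraries with a shared cell could give one, so no conclusion is drawn from this. Igf1 with Mamdc2 was above 1 in 3 of 4.

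The genes whose amounts ran most like a factor's over positive cells were named by the mean Pearson correlation of log2(UMIs + 1) over the 4 libraries, among 4289 genes found in at least 5% of positive cells. For Igf1 these were Fabp5, a fatty acid binding protein (0.30), Apoe (0.29) and Cst7 (0.24). For Serpine2 they were the lysosomal proteases Ctsd (0.40) and Ctsb (0.32) with Cst7 (0.32), and for Timp2 Ctsd (0.35), the adaptor Tyrobp (0.32) and Cst7 (0.31). Il4i1 had the chemokine Ccl6 (0.21). No gene reached 0.2 for Spp1, Dkk2, Mamdc2 or Lgals3. The correlations share each cell's thinned depth and, for Cst7, the gene that called the state.

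Genotype was then compared on UMIs summed per library, 1 sum each, with edgeR's quasi-likelihood test. Over all cells, 0 of 13607 genes passed an adjusted p of 0.05 (0%). Without adjustment 987 had a p under 0.05, and DESeq2 called 18. None of the 8 factors passed. All 8 log2 differences of cKO over Control were below 0, as were those of 48.3% of all genes tested. The median of the 8 was -0.63 against 0.01 over all genes tested. In 6 of 8 both cKO libraries were below the 2 Control libraries, an order that 19.2% of all genes tested showed. The comparison over all cells holds both the size of the positive share and the amount per cell. The fit in positive cells below still mixes the amount per cell with the share of cells that hold both state genes.

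Igf1 had 55.0 and 58.1 CPM (here and below scaled with TMM factors) in Control replicates 1 and 2 and 39.6 and 16.8 in cKO replicates 1 and 2. The groups did not overlap, and cKO replicate 2 was the lowest. The log2 difference was -0.99 ± 0.30 (SE), with adjusted p = 0.676 by edgeR. Of 10 alternatives 4 passed, with adjusted p from 2.35e-23 to 0.689. Without cKO replicate 1 the difference was -1.75, with cKO replicate 2 and its other run code alone in its group. Without cKO replicate 2, within the shared run code, it was -0.51. Igf1 carries seed matches shown above, and their part in its difference was not tested.

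Il4i1 had 47.7 and 56.2 CPM in Control and 34.1 and 29.1 in cKO. The groups did not overlap, and the spread within each was under the gap between them. The log2 difference was -0.71 ± 0.11 (SE), with adjusted p = 0.186 by edgeR and a range of 7.51e-12 to 0.234 over 10 alternatives. It passed without Control replicate 1 (-0.83, adjusted p = 0.00901), without cKO replicate 1 (-0.83, adjusted p = 0.00053) and without cKO replicate 2 (-0.61, adjusted p = 0.0365).

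Mamdc2 had 3.52 and 3.59 CPM in Control and 1.19 and 1.17 in cKO, with no overlap. The difference was -1.59 ± 0.23 (SE), adjusted p = 0.186, on 135, 86, 40 and 32 UMIs. Over 10 alternatives the adjusted p ran from 5.76e-07 to 0.538, and without cKO replicate 1 it was 0.0123 at -1.60. Dkk2 had 1.33 and 2.38 against 1.16 and 0.586, a difference of -1.03 ± 0.42, adjusted p = 0.685.

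Serpine2 had 664 and 686 CPM in Control and 575 and 504 in cKO, and Timp2 had 854 and 835 against 716 and 616. Neither overlapped between groups. Their differences were -0.32 ± 0.11 and -0.34 ± 0.12 (SE), each with adjusted p = 0.685 by edgeR. Of 11 alternatives DESeq2 alone called them, with adjusted p of 0.0441 and 0.0347, and the highest adjusted p was 1.00 for both. Timp2 is the other gene with seed matches, and their part in its difference was not tested.

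Spp1 had 20.05 and 40.7 CPM in Control and 29.0 and 11.8 in cKO, and Lgals3 17.3 and 10.3 against 18.0 and 6.56. Both overlapped between groups, and the libraries of each group differed more than the means. The differences were -0.54 ± 0.40 and -0.17 ± 0.40 (SE), adjusted p = 0.799 and 0.941. Without cKO replicate 1 both passed, at -1.35 (adjusted p = 0.0123) and -1.09 (adjusted p = 0.0166), in ranges over 10 alternatives of 8.78e-06 to 1.00 and 0.0166 to 1.00. Without Control replicate 2 Spp1 was at 0.03, and without Control replicate 1 or cKO replicate 2 Lgals3 was at 0.26 or 0.36.

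**Figure D4:**
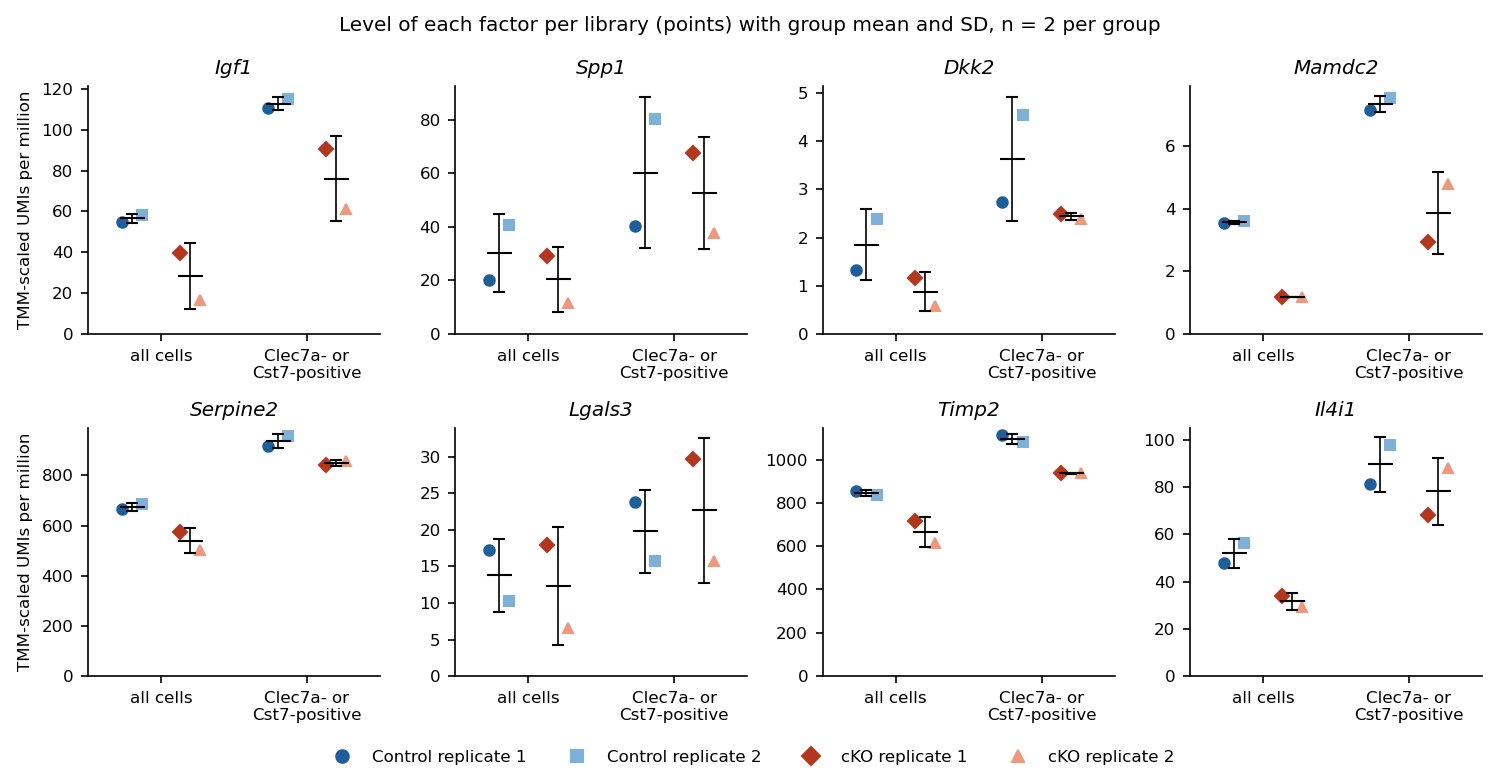
CPM, scaled with TMM factors (y axis, from 0), of each factor per library in all cells and in Clec7a- or Cst7-positive cells. Points are libraries, and the bars are group means with SD (n = 2). In all cells both cKO libraries lie below both Control libraries for 6 of 8 factors, with Spp1 and Lgals3 overlapping.

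In positive cells alone, 13 of 12311 genes passed (0.106%), 11 higher and 2 lower in cKO, and again none of the 8 factors. Those higher included the neutrophil genes S100a8, S100a9 and Retnlg and the heat-shock genes Hspa1a and Hspa1b, named after their values were seen because their sums are given above. Only 4 thinned cells in all held at least 2 neutrophil markers, and none of them held Cst7. Clec7a was found in 1 of 2 such cells in cKO replicate 1 and in the 1 of cKO replicate 2. It was not found in the 1 of Control replicate 1. The part of such single cells in the calls of the neutrophil genes was not tested. Of the factors, 7 of 8 had a difference below 0, against 48.6% of genes tested. The median of the factors was -0.22 against 0.00 over all genes. In 5 of 8 both cKO libraries were below both Control libraries, against 19.1% of genes tested.

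Igf1 in positive cells stood at 110 and 115 CPM in Control and 90.7 and 61.3 in cKO, with no overlap and a difference of -0.55 ± 0.14 (SE), adjusted p = 0.343. It passed without Control replicate 1 (-0.58, adjusted p = 0.00011), without Control replicate 2 (-0.51, adjusted p = 0.000386) and without cKO replicate 1 (-0.88, adjusted p = 0.0441). Within the shared run code, without cKO replicate 2, the difference was -0.31 (adjusted p = 0.991). Over 12 alternatives the adjusted p ran from 6.92e-07 to 1.00. Mamdc2 stood at 7.15 and 7.51 against 2.94 and 4.78, a difference of -1.01 ± 0.24, adjusted p = 0.303. It passed in 2 of 11 alternatives, with adjusted p from 0.00121 to 0.975. Timp2 stood at 1113 and 1080 against 936 and 937, a difference of -0.23 ± 0.09, adjusted p = 0.641.

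None of the other factors passed in positive cells either. Serpine2 differed by -0.14 ± 0.09, Il4i1 by -0.21 ± 0.12, Dkk2 by -0.52 ± 0.32 and Lgals3 by 0.24 ± 0.24 (SE), with adjusted p of 0.804, 0.773, 0.788 and 0.879. Spp1 stood at 40.3 and 80.3 CPM in Control and 67.5 and 37.8 in cKO, so that each group held a high and a low library. Its difference of -0.13 ± 0.28 (adjusted p = 0.960) passed the threshold downwards without Control replicate 1 (-0.57, adjusted p = 0.000182) and upwards without Control replicate 2 (0.43, adjusted p = 0.0347). Lgals3 passed upwards without Control replicate 1 (0.58, adjusted p = 0.0459). Over 12 alternatives the adjusted p of Spp1 and of Lgals3 reached 1.00.

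In cells with neither gene, 0 of 12987 genes passed (0%), with 524 at an unadjusted p under 0.05 and 9 called by DESeq2. Dkk2 and Mamdc2 had too few UMIs there to be tested. Il4i1 stood at 16.2 and 17.4 CPM in Control and 10.98 and 10.2 in cKO, with no overlap, an order that 16.7% of genes showed, and a difference of -0.66 ± 0.12 (SE), adjusted p = 0.566. Its share of these cells at 2000 UMIs was 2.89% and 3.03% against 1.92% and 1.92%. Serpine2 differed by -0.12 ± 0.08, Timp2 by -0.16 ± 0.08, Igf1 by -0.46 ± 0.34, Lgals3 by -0.31 ± 0.46 and Spp1 by 0.07 ± 0.50. Without Control replicate 1 Lgals3 turned to 0.38 and Spp1 to -0.62, and neither passed.

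Whether the genotype difference itself differed between the states was tested as an interaction, with the library as a block. Of 13061 genes 15 passed (0.115%), and no factor did. Among the 6 factors tested Il4i1 had the smallest p, whose difference was 0.44 ± 0.13 (SE) higher in positive cells than in cells with neither gene, adjusted p = 0.330. It passed without cKO replicate 1 (0.73, adjusted p = 0.00457), and over 11 alternatives the adjusted p ran up to 1.00. For Lgals3 it was 0.48 ± 0.19, adjusted p = 0.613. Timp2 had -0.09 ± 0.04 (adjusted p = 0.739) and Serpine2 -0.04 ± 0.04 (adjusted p = 0.899). Spp1 had -0.28 ± 0.32 (adjusted p = 0.919), in a range of -0.93 to 0.31 over 11 alternatives. Dkk2 and Mamdc2, with too few UMIs in cells with neither gene, were not tested. For Igf1 it was -0.16 ± 0.18, adjusted p = 0.917. Without Control replicate 1 that of Igf1 turned to 0.15 (adjusted p = 0.943, in a range of 0.745 to 1.00 over 11 alternatives).

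**Figure D5:**
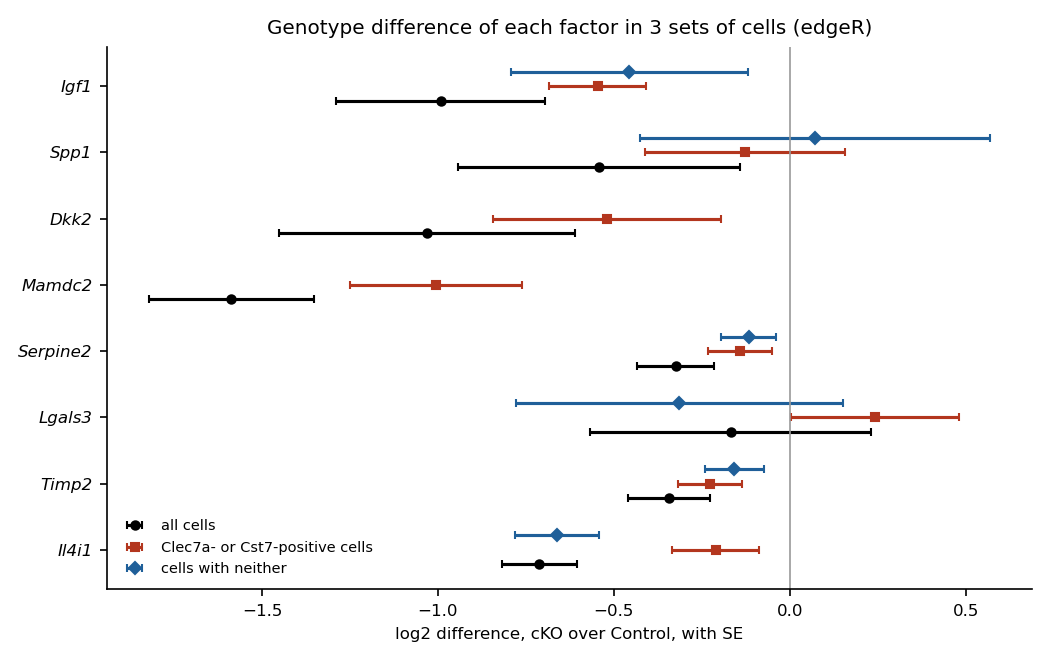
Log2 difference of each factor, cKO over Control, with its SE (x axis) in all cells, Clec7a- or Cst7-positive cells and cells with neither gene, from edgeR on 4 sums. Igf1 lies at -0.99 in all cells and -0.55 in positive cells. Il4i1 lies at -0.71 in all cells, -0.21 in positive cells and -0.66 in cells with neither gene.

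As shares of all cells at 2000 UMIs, Igf1 was found in 5.93% ± 0.0634 of Control cells and 3.25% ± 2.15 of cKO cells (SD, n = 2 each), a difference of -2.68 points. Differences were -0.862 points for Spp1, -2.22 for Il4i1, -5.18 for Serpine2, -4.91 for Timp2, -0.384 for Mamdc2 and -0.126 for Dkk2, without overlap between groups. For each of these 7 the exact two-sided permutation p was 0.333, or 0.381 adjusted over the 8 factors, and it cannot be lower with 2 libraries a group. The Dkk2 shares rest on 8 and 7 cells in Control and 5 and 2 in cKO. How many of all genes have shares of cells without overlap was not computed. By CPM in all cells, 19.2% of genes tested had both cKO libraries below both Control libraries. Lgals3 overlapped (-0.224 points, exact p = 1.00). Without Control replicate 1 all 8 differences kept their sign, with -2.64 points for Igf1 and -1.73 for Il4i1. At full depth, with cells not thinned, Timp2 was found in 88.6% and 88.2% of Control cells and 89.6% and 88.5% of cKO cells, a difference of 0.632 points in the other direction.

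Within positive cells the share of Igf1 differed by -4.45 points between groups, and by -1.18 within the shared run code. Dkk2 (-0.177 points), Mamdc2 (-0.796) and Serpine2 (-2.88) also did not overlap between groups there, while Spp1, Lgals3, Timp2 and Il4i1 did. Without Control replicate 1 the differences of Timp2 and Il4i1 turned from -1.01 and -1.15 points to 0.425 and 0.181. In cells with neither gene, Serpine2 (-3.08 points), Timp2 (-3.93) and Il4i1 (-1.04) did not overlap. The exact permutation p was at least 0.333 for each, the smallest this design allows. Overlap of shares over all genes was not computed here either. By CPM, both cKO libraries were below both Control libraries for 19.1% of genes in positive cells and 16.7% in the others.

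Genes that act with the factors were read from lists. None of the 13 genes of the IGF axis passed in all cells, where 7 were tested with a median log2 difference of 0.21. The binding protein Igfbp4 stood at 9.66 and 12.6 CPM in Control and 16.0 and 18.9 in cKO (0.65 ± 0.15 SE, adjusted p = 0.593), and the insulin receptor substrate Irs2 at 16.6 and 21.3 against 26.4 and 22.2 (adjusted p = 0.685). Of 8 osteopontin receptors none passed, with a median of -0.03, and the integrin subunits Itga9 and Itgb3 stood at 35.7 and 28.4 against 38.2 and 43.8 and at 30.0 and 27.7 against 24.5 and 26.0 (each adjusted p = 0.685). Of 16 genes of the Wnt and Dickkopf list 9 were tested and none passed, with a median of 0.07. The Dkk2 receptor Lrp5 stood at 23.1 and 23.6 against 27.1 and 34.3 (0.39 ± 0.11 SE, adjusted p = 0.636), and the Wnt transcription factor Tcf7l2 differed by 0.17 ± 0.08 (adjusted p = 0.702).

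Among 16 proteases and inhibitors of the serpin and TIMP axes, Mmp9, a gelatinase that neutrophils store, was the only member to pass in a genotype fit, in positive cells (adjusted p = 0.0360). It had no UMI in either Control library, 22 in cKO replicate 1 and 9 in cKO replicate 2. Each of those sums came from 1 cell, and both cells held a neutrophil marker. The UMIs of 1 cell are not independent counts, so no fold difference is given. Mmp12, a macrophage metalloproteinase, passed in the interaction (-3.84 ± 0.66 SE, adjusted p = 0.0301). Its UMIs were 56, 54, 40 and 3 in positive cells and 2, 2, 30 and 4 in cells with neither gene, so that cKO replicate 1 held most of those outside the state. The urokinase receptor Plaur stood at 33.0 and 35.0 CPM in Control and 26.0 and 19.6 in cKO (adjusted p = 0.498).

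The 8 galectins and ligands had a median of -0.07 and none passed: Lgals1 stood at 6.50 and 6.76 CPM against 4.48 and 4.58 (adjusted p = 0.596) and Cd63, a tetraspanin of lysosomes, at 913 and 1015 against 832 and 590.1 (adjusted p = 0.685). The amino-acid oxidase and AhR list, which holds the aryl hydrocarbon receptor that products of Il4i1 can activate, had a median of 0.04 over 8 genes tested, and none passed. Arnt, the partner of that receptor, differed by 0.11 ± 0.08 and Nfe2l2 by 0.10 ± 0.09 (SE).

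Other genes of the state had values of the same sign as the factors. All 15 other MGnD genes had a value below 0 in all cells and both cKO libraries below both Control libraries, an order that 19.2% of all genes tested showed, while 48.3% had a value below 0. Their median was -0.42 against 0.01 over all genes, and none passed. The actin motor Myo1e stood at 69.0 and 70.8 against 52.8 and 39.4 (adjusted p = 0.486) and the receptor Axl at 68.4 and 81.4 against 57.3 and 46.9 (adjusted p = 0.548). In positive cells 14 of 15 were below 0, against 48.6% of genes tested there, with a median of -0.17. Of 23 other secreted genes of the state, 17 were below 0 in all cells, with a median of -0.25, and none passed. The lipase Lpl stood at 218 and 238 against 151 and 114 (-0.78 ± 0.13 SE, adjusted p = 0.300), and Anxa5, an annexin, at 67.9 and 67.7 against 55.2 and 39.6 (adjusted p = 0.596). Clec7a and Cst7, which call the state, are among these lists.

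In the interaction, Apoe and Ctsd of that list passed downwards (-0.56 ± 0.06 SE, adjusted p = 0.000326, and -0.14 ± 0.02, adjusted p = 0.0222). Apoe stood at 6823, 8545, 8220 and 6971 CPM in positive cells and at 668, 1045, 1264 and 1119 in cells with neither gene. These CPM follow the order of the libraries above and were not scaled with TMM factors. The genotype difference of Apoe did not pass in either set of cells, with -0.09 (adjusted p = 0.939) in positive cells and 0.42 (adjusted p = 0.965) in the others. The neutrophil and heat-shock sums given above differ between libraries, and their part in these differences was not tested.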

How the data were processed

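Per the labels' protocols, 10x 3′ v3.1 libraries of sorted CD11b+/CD45+ brain cells were sequenced. Per the submitters' processing notes, Cell Ranger 4.0.0 with mm10 was used, and the authors deposited unfiltered matrices of UMI counts per gene and barcode with their feature and barcode names. No filter or normalization by the authors is in these counts.

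Barcodes with at least 1000 UMIs, 500 genes and at most 10% mitochondrial UMIs were kept. Doublets stayed in, since the caller's own cut marked too few. An alternative left out the 401 highest Scrublet scores (scanpy 1.11.5). Each cell was thinned to 2000 UMIs (seed 7) for shares and pairs. Odds ratios were pooled over libraries, and 0.5 was added to each cell of a library's 2 by 2 table. UMI counts as deposited, not thinned, were summed per library for all, positive and other cells. They were tested with edgeR 4.0.16 (R 4.3.3, filterByExpr, TMM, quasi-likelihood, Benjamini-Hochberg over all genes tested, threshold 0.05), with tested alternatives such as DESeq2 1.42.0. All adjusted p-values come from edgeR unless DESeq2 is named. The design had 2 residual degrees of freedom. With 1 library left out, the lone library of its group is assumed to vary like the other group. Shares were compared with exact permutation tests (scipy 1.17.1). The fits were tested on simulated data.

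All 8 factors are named in each genotype fit. Of each gene list, members past the threshold in a genotype fit are named, and otherwise the 2 with the smallest p in all cells. Members and lists were chosen with earlier results of these data known.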

Additional observations from a re-analysis of the deposited data

How the results depend on the processing

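Of 253 factor log2 differences recomputed in the 3 genotype fits, 213 kept their direction and side of the threshold, 27 were newly past it and 13 had the other direction. The cause was not tested. The number of genes called in all cells (0) became 18 with DESeq2, 350 with no filter on low counts, 3 with other-type barcodes left out, 7 with thinned counts and 26 to 613 with 1 library left out. In positive cells (13) it became 226 with no filter, 30 without the highest doublet scores, 4 with both state genes required and 7 to 184 with 1 library left out. In cells with neither gene (0) it became 9 with DESeq2, 7 thinned and 0 to 3 with 1 library left out. The interaction (15) became 4 with DESeq2, 92 with no filter, 40 without other-type barcodes, 32 without the highest doublet scores, 7 thinned, 5 with both genes and 6 to 86 with 1 library left out.

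Directions turned as follows. Serpine2 in positive cells was at 0.0060 with both genes required. In cells with neither gene, thinned counts gave -0.60 for Spp1 and 0.057 for Lgals3. The interaction of Serpine2 was 0.023 without other-type barcodes and 0.11 with both genes, that of Igf1 0.0089 thinned and 0.051 with both genes, that of Spp1 0.31 thinned and that of Timp2 0.017 with both genes. The Timp2 share difference was 0.632 points with cells not thinned.

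With 1 library left out, the Lgals3 share difference ran from -0.784 to 0.336 points. In all cells Spp1 ran from -1.35 to 0.034 and Lgals3 from -1.09 to 0.36, in positive cells Spp1 from -0.65 to 0.43 and Lgals3 from -0.36 to 0.58, and in the others Spp1 from -0.62 to 1.09 and Lgals3 from -1.19 to 0.38. The interaction ran from -0.42 to 0.15 for Igf1 and from -0.93 to 0.31 for Spp1.

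Of pairs above 1 in all libraries (18 of 28), the count was 10 with both genes required. Of the 18, 9 involve Dkk2 or Mamdc2, where the 0.5 added to each table cell puts some libraries without a shared cell above 1. The odds ratio of Igf1 with Il4i1 was 0.834 at 1000 UMIs and 0.961 with both genes, of Spp1 with Il4i1 0.998 at 1000 UMIs and of Timp2 with Il4i1 0.816 with both genes. Within strata the count (5) was 5 to 9 with 1 library left out.

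Replicate numbers are shared across groups, but the labels state no pairing, and over 13607 genes same-numbered deviations correlated at 0.0904. With the replicate number as a block, 170 genes passed in all cells, 189 in positive cells and 2 in the others. The block was not run for the interaction, where the library is already a block. All 8 factors kept a higher share in positive cells in 4 of 4 libraries under 5 alternatives chosen after seeing the data. Dkk2 and Mamdc2 had 16 to 135 UMIs a library, so their shares and pairs rest on few cells.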
